A study of Mus musculus with 8 samples.

Results

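The 10 genes described here are the core of the mammalian circadian clock and its best known direct output: Per1, Per2, Per3, Cry1, Cry2, Arntl, Clock, Nr1d1, Nr1d2 and Dbp. They were followed in the epidermis of wild-type mice and of mice without REDD1 (gene Ddit4), after topical fluocinolone acetonide (FA, a synthetic glucocorticoid) or vehicle. A member was kept when a probe that the platform assigns to its symbol had a detection p under 0.05 on 2 or more of the 8 arrays. By this rule 9 of 10 members were kept, with 14 of their 17 probes, among 9343 genes kept in the whole series. Cry1 has 1 probe, which was not detected on any array. Per3 passed only through the wild-type vehicle group, where both arrays detected it, and was detected on no other array. Its differences from that group are therefore given without a test, and it is left out of the counts and medians of members in the comparisons. Where Per3 is included, as in the gaps between arrays and the counts under other processing, this is said.

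RNA was measured on 8 Illumina MouseRef-8 bead arrays, with 4 groups of 2 arrays: wild type and REDD1 KO, each with vehicle or with FA. All animals were 7-week-old females in telogen, the resting phase of the hair cycle, that had been shaved before FA (2 µg per animal in 200 µl acetone) or acetone alone was applied to the skin, and epidermis was taken 24 h later. In the REDD1 KO animals, in every cell, exon 2 of Ddit4 is replaced by a LacZ and neomycin cassette. The labels name the strain B6D2, the site as the posterior ear lobe and the status of the controls as untreated, whereas the methods describe B6x129 animals, back skin and acetone controls. Which holds for these arrays could not be settled. The controls are called vehicle here after the methods, and if they were untreated, each FA difference would include the effect of acetone. The sources used here do not give the hour of the day at harvest, and all samples come from 1 time after treatment, so each value is a level at 1 moment and carries no phase or amplitude.

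The clock is a feedback loop of transcription that runs in nearly every cell, the keratinocytes of the epidermis included. CLOCK and ARNTL (also called BMAL1) form a dimer that binds E-boxes and switches on the Per, Cry, Nr1d and Dbp genes. The PER and CRY proteins then block that dimer, while NR1D1 and NR1D2 (REV-ERB alpha and beta) repress Arntl through ROR elements. DBP and its relative TEF activate genes with D-boxes, and NFIL3 represses through the same sites. Glucocorticoids are a known timing signal for clocks outside the brain, and Per1 is a known direct target of the glucocorticoid receptor.

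The promoters of the loop genes were searched for the letters of these sites, from 250 bases before to 50 bases after each annotated start, on both strands (RefSeq, GRCm38.p6). Of the 10 members, 9 have a promoter in the table, with 13 windows among them, and the 23 other clock genes there have 32 windows. Clock genes are counted as genes, whereas the shares of all promoters are counted by window. A gene with several windows thus has more chances of a match. The E-box (CACGTG) was found in the windows of 2 members, Per1 and Cry1, against 7.15% of all 32851 promoters, and in those of 5 of the 23 other clock genes in the table. The D-box (TTATGTAA) was found in 1 member, Per3, against 0.938% of all promoters, and the ROR element (AANT directly followed by AGGTCA) in 1 member, Arntl, 28 bases after its second start, against 0.219%. The glucocorticoid response element (GNACA and TGTNC with 3 bases of any kind between them) had no match in any clock gene window, against 0.475% of all promoters. No 2 of these motifs overlapped. The stretches printed here are those of the output pair Dbp and Tef, which fell with FA in wild type, and of Per1, Ciart and Per3, whose matches are repeated or lie in a gene with a large spread between arrays. Each is read 5′ to 3′ on the gene's own strand and lies before the start site, with the E-box (Tef, Per1, Ciart) or D-box (Per3) in capitals, and Dbp is the 100 bases before its start, with no match.
Tef, first start (chr15:81802521-81802576, plus strand): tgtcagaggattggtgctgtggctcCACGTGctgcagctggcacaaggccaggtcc
Tef, second start (chr15:81811251-81811306, plus strand): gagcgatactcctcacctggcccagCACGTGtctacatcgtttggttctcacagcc
Per1 (chr11:69098758-69098813, plus strand): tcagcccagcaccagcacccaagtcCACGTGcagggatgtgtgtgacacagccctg
Ciart (chr3:95882242-95882369, minus strand): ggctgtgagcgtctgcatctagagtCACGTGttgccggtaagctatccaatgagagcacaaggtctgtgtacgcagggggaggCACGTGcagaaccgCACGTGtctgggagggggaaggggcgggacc
Per3 (chr4:151044791-151044895, minus strand): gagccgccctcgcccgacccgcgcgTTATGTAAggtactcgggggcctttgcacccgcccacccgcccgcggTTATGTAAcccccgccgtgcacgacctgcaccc
Dbp (chr7:45705147-45705246, plus strand): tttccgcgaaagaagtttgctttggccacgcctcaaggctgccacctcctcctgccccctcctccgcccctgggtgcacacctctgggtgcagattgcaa
A match is a description of the letters and not a bound site. In mouse Dbp, E-boxes used by the clock are known inside the gene, outside the stretch shown.

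**Figure D1:**
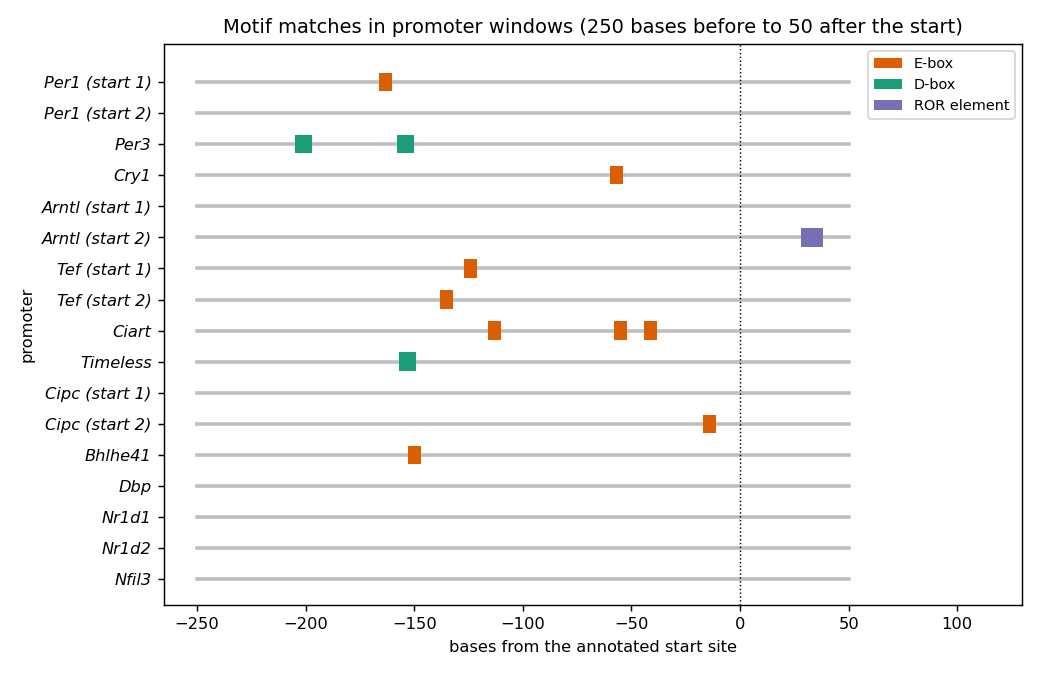
Motif matches along promoter windows of clock genes, with bases from the annotated start site on the horizontal axis and 1 line per window. Ciart has 3 E-boxes, Per3 has 2 D-boxes, both Tef starts have 1 E-box each, and Dbp, Nr1d1, Nr1d2 and Nfil3 have no match.

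Before the clock genes, the knockout and the tissue were checked. The Ddit4 signal was lower in REDD1 KO than in wild-type epidermis by 5.16-fold with vehicle and by 7.71-fold with FA (limma, adjusted p = 0.0096 and 0.00186). It was still detected on every KO array, and where its probe lies relative to the deleted exon was not examined. Of 12 keratinocyte markers, 10 were detected, and their summed signal lay between 84291 and 97011 on all arrays. The sum does not show changes of single markers. With FA, 1 was called higher in wild type, and 1 higher and 1 lower in REDD1 KO. Between genotypes with FA, 1 was called higher and 1 lower, and log2 differences ran from -2.11 to 0.79. Of all tested probes, 6.34%, 4.51% and 7.16% were called in these 3 comparisons. Correlations between the 2 arrays of a group were 0.976 to 0.99 over tested probes. Markers of some other cells moved with the groups. The summed signal of 4 Langerhans cell genes was 4723 to 6780 on the vehicle arrays and 607 to 1350 on the FA arrays. That of 5 T cell genes was 825 to 1589 and 264 to 572. Of the 4 Langerhans cell genes, 1 was not lower with FA in REDD1 KO (log2 difference 0.12). Among the fibroblast (5 detected of 6), endothelial (3 of 6) and melanocyte (1 of 6) markers, no gene had an adjusted p under 0.05 in any comparison (limma). With 2 arrays per group this does not show that the content of these cells was equal. The fibroblast genes summed to 412 and 471 in wild-type vehicle and to 600 and 748 in REDD1 KO vehicle. Hair follicle genes (4 detected of 6) summed to 223 and 376 in REDD1 KO FA against 937 to 2235 elsewhere, and sebaceous genes (4 of 5 with a probe) to 2142 and 4278 against 6576 to 10933. The hair follicle genes did not move alike. Between genotypes with FA their log2 differences ran from -3.09 to 0.24, with a median of -0.25 and 1 called lower. Those of the sebaceous genes ran from -1.36 to -0.81, with 2 called lower. The 6 skeletal muscle genes summed to 19590 on REDD1 KO FA replicate 1 and to 224 on replicate 2, against 306 to 2072 on the other arrays. Adipocyte genes (3 detected of 6) summed to 191 on that same replicate 1 and to 56 to 75 on all other arrays. The part of these cells in the clock gene values was not tested, and in bulk tissue fewer cells of a type and less RNA per cell cannot be told apart.

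FA lowered Dbp in wild-type epidermis, and Nr1d1 and Clock were called higher when both genotypes were averaged. These calls were not equally firm. Of 8 alternative settings other than leaving out an array, 0 lost the Dbp call, 1 lost the Nr1d1 call and 2 lost the Clock call. Values are log2 signals after background correction and normalization, so 1 unit is a doubling, and a gene is called at an adjusted p under 0.05 over the 13131 tested probes. In wild type, 1 of the 8 members other than Per3 was called, lower with FA (Dbp), where 6.34% of all tested probes were called and 3.17% were called lower. In REDD1 KO none was called by limma, with 4 at an unadjusted p under 0.05, where 4.51% of all tested probes were called and 19.6% had such an unadjusted p. In the mean of both genotypes 3 were called, 2 higher and 1 lower, where 13.1% of all tested probes were called, 6.11% higher and 6.98% lower. The median log2 change of the 8 members was 0.18 in wild type, 0.30 in REDD1 KO and 0.31 in the mean, against -0.017, -0.0012 and -0.0039 over all tested probes. The members thus spread to both sides, from -1.58 to 1.14 in wild type and from -0.48 to 1.02 in REDD1 KO. The FA effects in the 2 genotypes share no arrays, whereas the mean is made from both.

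**Figure D2:**
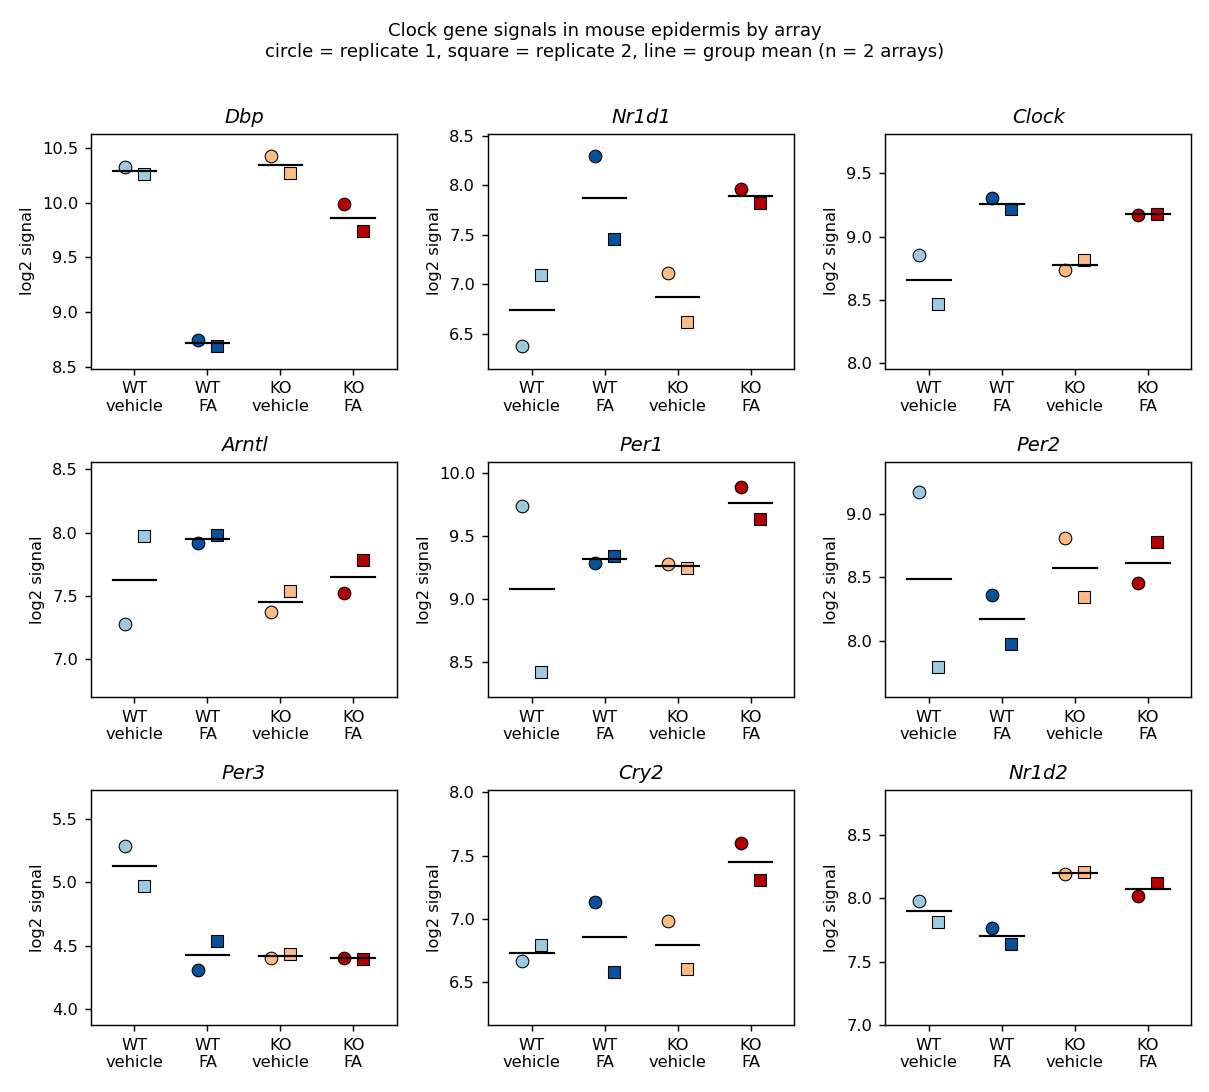
Log2 signal (vertical axis) of the 9 detected clock members in the 4 groups (horizontal axis), with circles for replicate 1, squares for replicate 2 and lines for the mean of 2 arrays. Dbp sits at 8.75 and 8.69 on the wild-type FA arrays, below all other arrays, while the 2 wild-type vehicle arrays lie far apart for Per1 and Per2.

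Dbp encodes a PAR bZIP transcription factor, the output of the loop through which D-box genes are driven. Its log2 signal was 10.33 and 10.26 on the wild-type vehicle arrays, 8.75 and 8.69 with FA, 10.42 and 10.27 on the REDD1 KO vehicle arrays, and 9.99 and 9.74 with FA. The FA arrays were below the vehicle arrays in both genotypes, and the 2 wild-type FA arrays were the lowest of all 8. In wild type the fall was 2.98-fold (log2 difference -1.58, 95% confidence interval -1.93 to -1.22, adjusted p = 0.00194). In REDD1 KO the values were 1.4-fold lower (log2 difference -0.48, interval -0.84 to -0.13, adjusted p = 0.13), which was not called. The wild-type fall kept its call under every alternative setting and with any 1 array left out, with adjusted p from 6.28e-05 to 0.0249. With background correction left out the REDD1 KO difference was called (adjusted p = 0.0495).

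With vehicle, Dbp did not differ between genotypes beyond the spread of the arrays (REDD1 KO minus wild type 0.05, interval -0.30 to 0.41, adjusted p = 0.972). With FA it was 2.21-fold higher in REDD1 KO than in wild type (log2 difference 1.15 ± 0.16 SE, adjusted p = 0.00595). The test of the difference between the FA effects themselves gave 1.09 (interval 0.59 to 1.60), with an unadjusted p of 0.000845 and an adjusted p of 0.308, so the difference in response was not called over all probes. Without REDD1 KO FA replicate 1, the array with the muscle signal, the FA-treated genotypes differed by 1.02 (adjusted p = 0.0276) and the difference of the effects was 0.97 (adjusted p = 0.313). Without wild-type FA replicate 2 the genotype difference under FA lost its call (1.12, adjusted p = 0.0605).

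Tef, the PAR bZIP relative of Dbp, showed the same order of groups. Its log2 signal was 10.64 and 10.12 in wild-type vehicle, 8.81 and 8.90 in wild-type FA, 10.33 and 10.58 in REDD1 KO vehicle, and 9.74 and 9.97 in REDD1 KO FA. Again the wild-type FA arrays were lowest, and the REDD1 KO FA arrays lay between them and the vehicle arrays. The fall in wild type was 2.88-fold (log2 difference -1.53, adjusted p = 0.00487), and the value in REDD1 KO was -0.60 (adjusted p = 0.145). With FA, Tef was 2-fold higher in REDD1 KO (log2 difference 1.00, adjusted p = 0.0237), a call lost without either wild-type FA array, without REDD1 KO FA replicate 2 and with no filter on low probes, with adjusted p of up to 0.128. The difference of the FA effects was 0.93 (adjusted p = 0.384). Over the 8 arrays Tef correlated with Dbp at r = 0.953, a description of 8 arrays in 4 groups. Hlf, the third of the family, was not detected.

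Outside the clock lists, the genes whose log2 values followed Dbp most closely over the 8 arrays were Pip4p2 (r = 0.99), Bloc1s5 (0.982), Plekha2 (0.982), Sdc2 (0.977) and Hsd3b7 (0.976). Pip4p2 encodes a phosphatidylinositol 4,5-bisphosphate phosphatase, Bloc1s5 a subunit of a complex in the making of lysosome-related organelles, Sdc2 a cell surface heparan sulfate proteoglycan and Hsd3b7 an enzyme of bile acid synthesis. The genes running most nearly opposite were Gde1 (-0.983), Slc22a23 (-0.982) and Stx17 (-0.982), the last a syntaxin needed for autophagosome fusion. Pip4p2 stood at 7.68 and 7.72 in wild-type vehicle, 7.0 and 6.92 in wild-type FA, 7.82 and 7.70 in REDD1 KO vehicle, and 7.49 and 7.51 in REDD1 KO FA. It has the same order of groups as Dbp over a narrower range. These genes were picked out of all tested probes for their r.

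The heme-binding repressors of Arntl gave unequal values. Nr1d1 stood at 6.38 and 7.09 in wild-type vehicle, 8.29 and 7.46 in wild-type FA, 7.12 and 6.62 in REDD1 KO vehicle, and 7.96 and 7.82 in REDD1 KO FA. All 4 FA arrays were above all 4 vehicle arrays. The change was 2.2-fold in wild type and 2.03-fold in REDD1 KO, neither of them called alone (adjusted p = 0.0682 and 0.116), and the mean of both genotypes rose 2.11-fold (log2 difference 1.08, interval 0.57 to 1.59, adjusted p = 0.0145). The second Nr1d1 probe gave 1.10 for the mean. The adjusted p passed 0.05 with wild-type FA replicate 1 left out (0.0534), with REDD1 KO vehicle replicate 2 left out (0.0556) and with no filter on low probes (0.0669). Nr1d2 stood at 7.98 and 7.82, 7.77 and 7.64, 8.19 and 8.21, and 8.02 and 8.12 in the same order of groups. Its FA differences were -0.19 in wild type and -0.13 in REDD1 KO (adjusted p = 0.498 and 0.685), and its other probe gave the opposite sign, so no direction can be given.

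In the activating arm, Clock rose in the mean of both genotypes and Arntl was not called. Clock, which encodes one partner of the activating dimer, stood at 8.86 and 8.46 in wild-type vehicle, 9.31 and 9.22 in wild-type FA, 8.73 and 8.82 in REDD1 KO vehicle, and 9.17 and 9.18 in REDD1 KO FA. All 4 FA arrays were higher than all 4 vehicle arrays. The mean of both genotypes rose 1.41-fold (log2 difference 0.50 ± 0.12 SE, adjusted p = 0.0269), with 0.60 in wild type (adjusted p = 0.0734) and 0.40 in REDD1 KO (0.24). This call was lost without any 1 array other than wild-type vehicle replicate 1, with median centring in place of quantile normalization (adjusted p = 0.106) and with the other Clock probe (0.123). Arntl, the partner of Clock, stood at 7.28 and 7.97, 7.92 and 7.98, 7.37 and 7.54, and 7.52 and 7.78 in the same order. Its groups overlapped in both genotypes, with FA differences of 0.32 and 0.20 (adjusted p = 0.443 and 0.682). In all, 3 of 8 members had no overlap between the 4 FA and the 4 vehicle arrays, where 15.1% of all tested probes had none.

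In the negative arm, Per1, Per2 and Cry2 were not called with FA, and the 2 wild-type vehicle arrays lay far apart for Per1 and Per2. Per1 stood at 9.74 and 8.42 in wild-type vehicle, 9.29 and 9.34 in wild-type FA, 9.28 and 9.24 in REDD1 KO vehicle, and 9.89 and 9.63 in REDD1 KO FA. The wild-type vehicle arrays lay on either side of both FA arrays. The FA difference was 0.23 in wild type (interval -0.55 to 1.02, adjusted p = 0.745), and it turned to -0.43 without wild-type vehicle replicate 2 and to 0.89 without replicate 1. A second Per1 probe, also detected on all 8 arrays, gave 0.66 in wild type (adjusted p = 0.285) and 0.31 in REDD1 KO (0.661), with the same gap in the wild-type vehicle pair (7.85 and 6.66). In REDD1 KO, where both FA arrays were higher, the first probe gave 0.50 (interval -0.28 to 1.28, adjusted p = 0.471). That interval is also widened by the gap in the wild-type vehicle pair, since the variance was pooled over all arrays.

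Per2 behaved alike in the vehicle pair, with 9.18 and 7.79 in wild-type vehicle, 8.36 and 7.97 in wild-type FA, 8.81 and 8.34 in REDD1 KO vehicle, and 8.46 and 8.78 in REDD1 KO FA. The groups overlapped in both genotypes. The FA differences were -0.32 (interval -1.20 to 0.56) and 0.04 (interval -0.84 to 0.92), with adjusted p of 0.69 and 0.969. These intervals leave room for changes of more than 1 log2 unit in wild type. Both carry the gap in the wild-type vehicle pair, since the variance was pooled over all arrays.

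Per3, a PER protein that is not needed for a running clock in mouse, was at the lower end of what the array measures. It stood at 5.29 and 4.97 in wild-type vehicle, 4.31 and 4.54 in wild-type FA, 4.40 and 4.43 in REDD1 KO vehicle, and 4.40 and 4.39 in REDD1 KO FA. The last 6 values were not above background, and the gene was kept for the first pair alone. Set against the lowest signal of detected probes as a bound, the wild-type vehicle mean was at least 1.39-fold higher than with FA in wild type and at least 1.43-fold higher than in REDD1 KO with vehicle, which is a description of the values that kept the gene. Cry2, a repressor of the dimer, stood at 6.67 and 6.79, 7.14 and 6.58, 6.98 and 6.60, and 7.60 and 7.30 in the same order of groups. The REDD1 KO FA arrays were the highest of all, but the differences were not called, with 0.66 for FA in REDD1 KO (adjusted p = 0.147) and 0.60 for REDD1 KO against wild type with FA (adjusted p = 0.142).

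**Figure D3:**
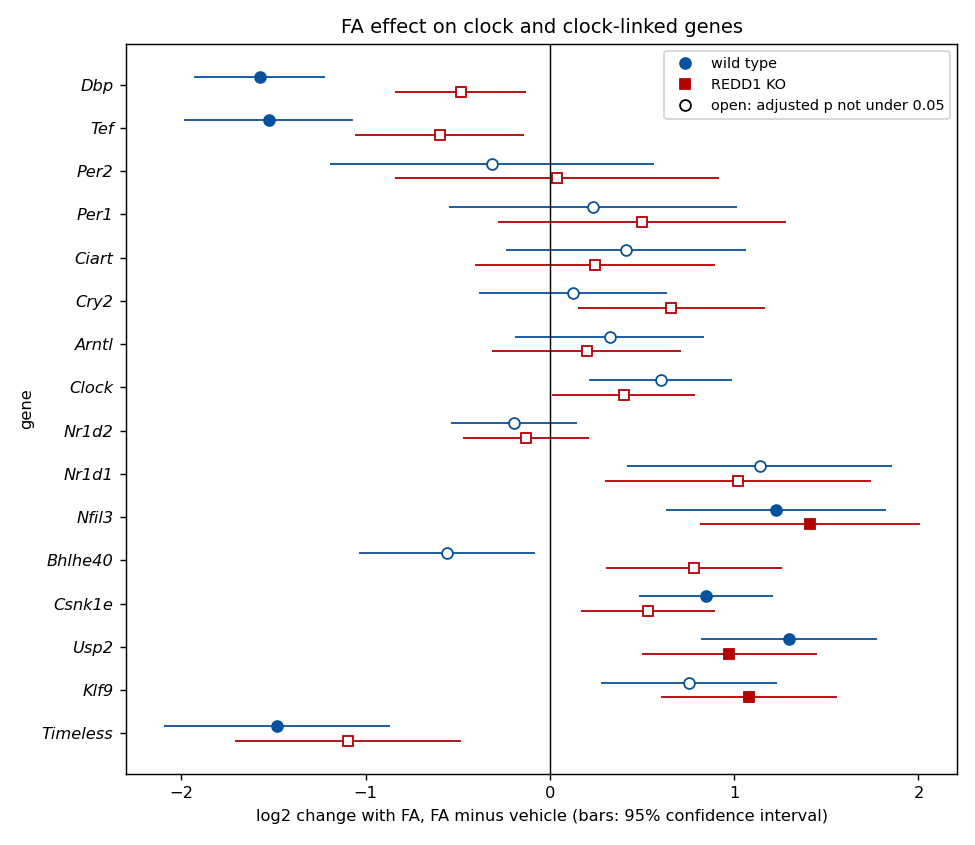
Log2 change with FA (horizontal axis, FA minus vehicle, bars for the 95% confidence interval, 2 arrays per group) for clock members other than Per3 and clock-linked genes (vertical axis), with circles for wild type and squares for REDD1 KO, filled where the adjusted p is under 0.05. Dbp and Tef lie at -1.58 and -1.53 in wild type and at -0.48 and -0.60 in REDD1 KO, while Nfil3 and Usp2 are filled to the right in both genotypes.

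The 2 wild-type vehicle arrays had the widest gaps in the members, by the median. Per1 and Per2 were lower on replicate 2 by 1.32 and 1.38, above the 95th percentile of all tested probes in that pair (0.72). Ciart, a repressor of the CLOCK dimer with 3 E-boxes in the stretch shown, was 7.32 and 6.34, a gap of 0.97 in the same direction. Arntl and Nr1d1 were higher on replicate 2, by 0.69 and 0.72, and so were Timeless and Ccrn4l (nocturnin, an output gene), by 0.98 and 0.91, past the 95th percentile. In the other 3 groups the gaps of Per1 were 0.06, 0.04 and 0.26. Wide gaps were not limited to the vehicle pair, since Nr1d1 differed by 0.83 and Cry2 by 0.56 between the 2 wild-type FA arrays, where the 95th percentile was 0.56. The median gap of the 9 members, Per3 included, was 0.39 in wild-type vehicle against 0.21 for all tested probes. It was 0.13, 0.15 and 0.25 in the wild-type FA pair and the REDD1 KO pairs with vehicle and with FA, against 0.17, 0.18 and 0.21. Dbp differed by 0.07 in the wild-type vehicle pair, so its fall does not rest on either array. The T cell markers of the 2 wild-type vehicle arrays were 1589 and 965 and the Langerhans cell markers 6780 and 4723, and their part in these gaps was not tested. Every comparison of Per1, Per2, Ciart or Timeless that uses the wild-type vehicle group carries this spread in its value. The variance of each probe was pooled over all arrays, so the spread also widens the intervals of comparisons without that group. The SE of Per1 was 0.35 for FA in wild type, for FA in REDD1 KO and between FA-treated genotypes. With only the 4 arrays compared, the adjusted p between FA-treated genotypes went from 0.468 to 0.163 for Per1. For Per2 it went from 0.518 to 0.227, and neither was called.

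**Figure D4:**
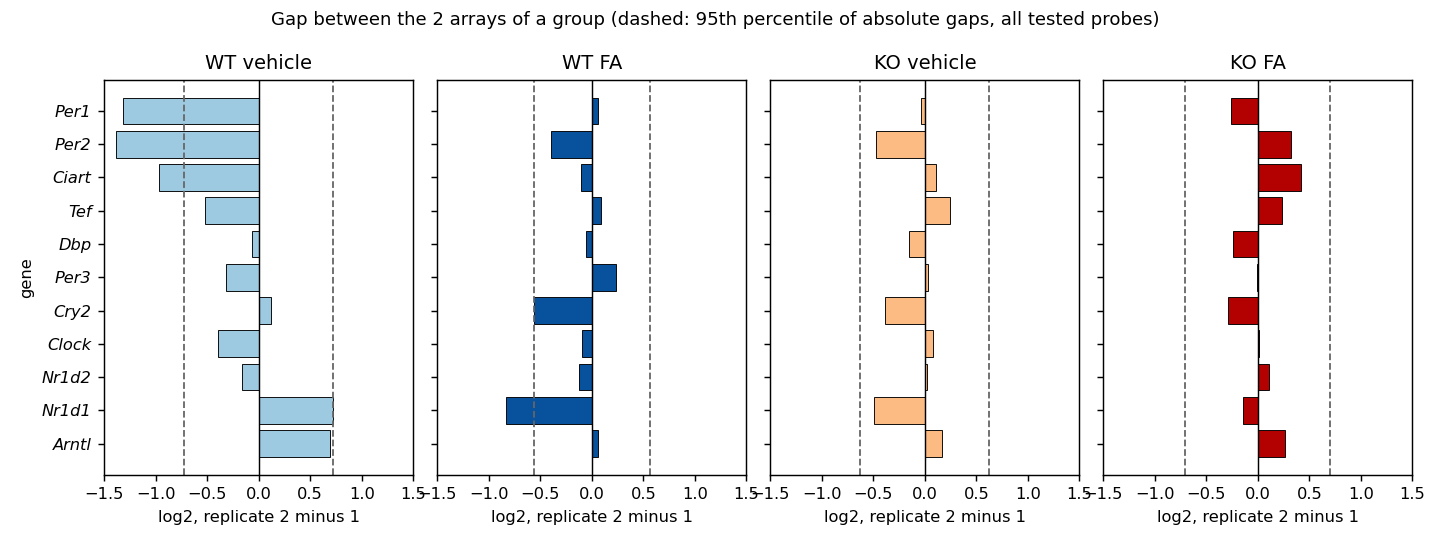
Gap between the 2 arrays of each group (horizontal axis, log2, replicate 2 minus replicate 1) for clock genes (vertical axis), 1 panel per group, with dashed lines at the 95th percentile of the absolute gaps of all tested probes. Per1, Per2 and Ciart pass the line in the wild-type vehicle panel with gaps of 1.32, 1.38 and 0.97 toward lower values on replicate 2.

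Between genotypes, Dbp was the 1 member called, and only on the FA arrays. With vehicle, none of the 8 members other than Per3 was called between REDD1 KO and wild type by limma, with 0 at an unadjusted p under 0.05, where 0.51% of all tested probes were called and 8.64% had such an unadjusted p. With FA, 1 was called, Dbp, with 3 at an unadjusted p under 0.05, where 7.16% of all tested probes were called, 3.14% higher, and 25.4% had such an unadjusted p. The median difference of the members with FA was 0.41 against 0.02 over all tested probes. For the difference of the FA effects none was called, with 1 at an unadjusted p under 0.05 (Dbp), where 0.0305% of all tested probes were called and 9.92% had such an unadjusted p. The comparisons between genotypes use the same arrays as the FA comparisons and add no independent evidence to them.

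Beyond the members, 31 further genes tied to the clock were followed, of which 27 have a probe and 19 were detected. In wild type 3 of them rose and 2 fell with FA, in REDD1 KO 3 rose and none fell, and in the mean of both genotypes 4 rose and 2 fell. Of all tested probes, 3.18% were called higher and 3.17% lower in wild type, 2.17% were called higher in REDD1 KO, and 6.11% higher and 6.98% lower in the mean. Under median centring the median over all tested probes moved to -0.08 in wild type, -0.13 in REDD1 KO and -0.10 in the mean, and the share of called probes that were higher moved from 50.1% to 40.6%, from 48.1% to 29.5% and from 46.7% to 27.0%. All the called changes of clock genes given here kept their direction under that scaling.

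Nfil3, the repressor at D-boxes, rose in both genotypes. It stood at 7.38 and 6.89 in wild-type vehicle, 8.19 and 8.53 in wild-type FA, 7.22 and 7.57 in REDD1 KO vehicle, and 8.48 and 9.13 in REDD1 KO FA. All FA arrays were above all vehicle arrays. The rise was 2.34-fold in wild type (adjusted p = 0.0297), 2.66-fold in REDD1 KO (0.0206) and 2.49-fold in the mean (0.00258). With wild-type FA replicate 1 or 2 or vehicle replicate 2 left out, Nfil3 was no longer called in wild type (adjusted p = 0.102, 0.175 and 0.129). The call in REDD1 KO ended without FA replicate 2 (0.0853) or vehicle replicate 1 (0.121) or 2 (0.0643), and both calls ended with no filter on low probes (0.093 and 0.0842). In all, the REDD1 KO call of Nfil3 was lost under 2 of 8 alternative settings. The D-box activators Dbp and Tef and the D-box repressor Nfil3 thus lay on opposite sides in wild type, at -1.58, -1.53 and 1.23.

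**Figure D5:**
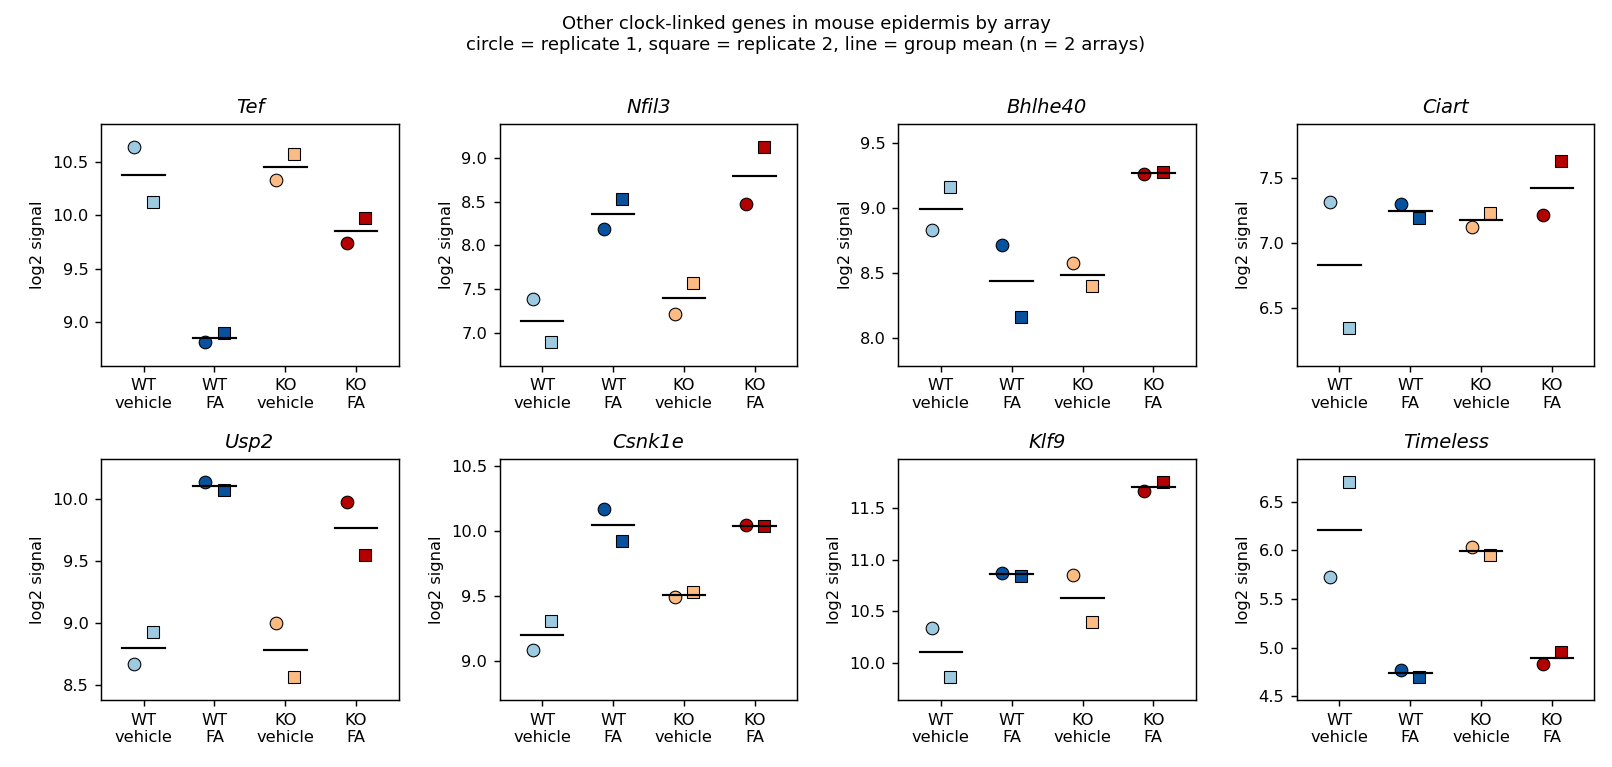
Log2 signal (vertical axis) of 8 clock-linked genes in the 4 groups (horizontal axis), with circles for replicate 1, squares for replicate 2 and lines for the mean of 2 arrays. Tef is lowest at 8.81 and 8.90 with FA in wild type, Nfil3 and Usp2 are higher on all FA arrays, and Bhlhe40 is lower with FA in wild type and higher with FA in REDD1 KO.

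The other repressors differed among themselves. Timeless, whose known role in mammals is mainly at the replication fork, stood at 5.73 and 6.70 in wild-type vehicle, 4.77 and 4.70 in wild-type FA, 6.03 and 5.95 in REDD1 KO vehicle, and 4.84 and 4.96 in REDD1 KO FA. All FA arrays were lower, with a fall of 2.79-fold in wild type (adjusted p = 0.0158), values 2.14-fold lower in REDD1 KO (0.0575) and a fall of 2.44-fold in the mean (0.00331). With wild-type FA replicate 1 or 2 left out, Timeless was no longer called in wild type (0.0984 and 0.107), nor was it without background correction, where the log2 difference shrank to -0.56 (adjusted p = 0.0622). In all, the wild-type call of Timeless was lost under 2 of 8 alternative settings. Bhlhe40 (DEC1), which competes for E-boxes, stood at 8.83 and 9.16, 8.71 and 8.16, 8.57 and 8.40, and 9.26 and 9.27 in the same order of groups. Its FA arrays were below the vehicle arrays in wild type (-0.56, adjusted p = 0.156) and above them in REDD1 KO (0.78, adjusted p = 0.0772). With FA it was higher in REDD1 KO by 0.83 (adjusted p = 0.0486), a call lost under 4 of 8 alternative settings and without any array other than the wild-type vehicle pair, with adjusted p of up to 0.271 without wild-type FA replicate 2. Ciart and Cipc had FA differences of 0.33 and 0.16 in the mean (adjusted p = 0.331 and 0.396), and Bhlhe41 was not detected. Among the activators, Rora stood between 10.11 and 10.66 on all arrays with an FA difference of 0.17 in the mean (adjusted p = 0.319), and Npas2 and Arntl2 were not detected.

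Usp2 and Csnk1e, which act on the stability of clock proteins, rose with FA in wild type and in the mean. Usp2, a ubiquitin-specific protease, stood at 8.68 and 8.93 in wild-type vehicle, 10.13 and 10.07 in wild-type FA, 9.0 and 8.57 in REDD1 KO vehicle, and 9.98 and 9.54 in REDD1 KO FA. All FA arrays were higher, by 2.46-fold in wild type (adjusted p = 0.00977), 1.96-fold in REDD1 KO (0.0358) and 2.2-fold in the mean (0.00185), but the wild-type call was lost without either wild-type FA array or vehicle replicate 1, with adjusted p of up to 0.0789, and the REDD1 KO call without REDD1 KO FA replicate 1 (0.142), either KO vehicle array (up to 0.22) or either wild-type FA array (0.0707). The REDD1 KO call was also lost with median centring (0.145), with no filter on low probes (0.0907) and with only the 4 arrays compared (0.0977). A second Usp2 probe gave 0.97 in wild type (0.0528), 0.56 in REDD1 KO (0.254) and 0.77 in the mean (0.0216). Csnk1e, the casein kinase that phosphorylates PER proteins, stood at 9.08 and 9.31, 10.17 and 9.92, 9.49 and 9.53, and 10.04 and 10.04 in the same order of groups. It rose 1.8-fold in wild type (adjusted p = 0.0185) and 1.61-fold in the mean (0.00536), with a 1.45-fold difference in REDD1 KO (0.107), and the wild-type call was lost without either wild-type FA array (up to 0.146) or vehicle replicate 1 (0.0841) and with median centring (0.0891). A second Csnk1e probe gave 0.46 in wild type (0.154) and 0.36 in the mean (0.0867), neither called. Btrc, a subunit of the ubiquitin ligase for PER, was higher in REDD1 KO than in wild type with FA by 0.90 (adjusted p = 0.0266), a call lost without any 1 of the 4 FA arrays, with adjusted p of 0.0531 without REDD1 KO FA replicate 1 and of up to 0.171. The Btrc difference was 0.45 without background correction (0.0319). A second Btrc probe was detected on the REDD1 KO arrays alone, near background, and passed the filter only through them. Set against the lowest signal of detected probes, it was at least 1.03-fold higher in REDD1 KO with vehicle and 1.09-fold with FA. This describes the values that kept the probe and adds no support to the call.

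Of 8 genes listed as clock outputs, 5 were detected. None was called with FA in wild type, and 1, Klf9, was called in REDD1 KO, in the mean and between genotypes with FA. Of all tested probes, 6.34%, 4.51%, 13.1% and 7.16% were called in these comparisons, in the same order. Klf9, which is driven both by the clock and by the glucocorticoid receptor, stood at 10.34 and 9.86 in wild-type vehicle, 10.88 and 10.84 in wild-type FA, 10.86 and 10.40 in REDD1 KO vehicle, and 11.66 and 11.75 in REDD1 KO FA. Both FA arrays were above both vehicle arrays in each genotype, with a 1.69-fold difference in wild type (adjusted p = 0.0681), a rise of 2.11-fold in REDD1 KO (0.024) and of 1.89-fold in the mean (0.00488). With FA it was 1.8-fold higher in REDD1 KO than in wild type (adjusted p = 0.046). The call between genotypes was lost without any 1 of the 4 FA arrays (adjusted p of up to 0.206), and the call in REDD1 KO without any 1 of them (up to 0.0908) and without REDD1 KO vehicle replicate 2 (0.162). With no filter on low probes both were lost (0.0909 and 0.0709), and the call in REDD1 KO also with only the 4 arrays compared (0.0557). Wee1, a kinase that delays mitosis, had an FA difference of 0.86 in wild type (adjusted p = 0.064) and -0.13 in REDD1 KO (0.806). Its signal was low, at 4.52 to 5.73, and was detected on 7 of the 8 arrays. Nampt, the rate-limiting enzyme of NAD salvage, had FA differences of 0.68 (adjusted p = 0.111) and 0.42 (0.343). A second, dimmer Nampt probe had means of 4.83 with vehicle and 4.95 with FA in wild type. In REDD1 KO its means were 4.83 and 4.68, the opposite direction to the first probe.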

How the data were processed

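Total RNA of epidermis was hybridized to 8 one-colour Illumina MouseRef-8 arrays, 2 in each of 4 groups taken from the sample labels. The authors deposited bead intensity values of 25697 probes and 832 control lines, not normalized, with a detection p-value for each. The authors also deposited log2 values, background-corrected and quantile-normalized with limma's neqc (which version, the sources used here do not say). These log2 values were used, and a rebuild from the intensities with 798 control lines as negative controls (offset 16) differed by at most 5e-09. Array medians were 95.9 to 107 and negative-control means 90.5 to 99.3, so low signals are compressed. The files give no slide or scan information, so batches could not be examined. That the 2 samples of a group are separate animals follows from the methods' individual RNA samples; the number of arrays limits the precision.

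Probes detected at p under 0.05 in at least 2 of 8 arrays (13131) entered limma 3.58.1 (R 4.3.3; figures with Python 3.11.15) with 1 mean per group, empirical Bayes moderation and two-sided p-values adjusted by Benjamini-Hochberg over all of them. The fitting code was tested on simulated data with known changes. Where a gene had several probes, the one with the brightest mean log2 signal stood for it. The platform gave 1 symbol to 23978 probes and none to 1719. All members were described, other clock genes were counted and those called with FA named, together with at most 4 uncalled genes per list. Non-members most like the member with the smallest p were ranked by correlation. The members and lists were chosen with earlier results of these data known. A fold against a group below background on all its arrays is a bound, set on each array at the lowest signal of any detected probe, or at the dim probe's signal if that is higher. Alternatives were no background correction, offset 50, median centring, no filter, detection in all 8 arrays, only the arrays compared, the replicate number as a block, trended and robust moderation, other probes and each array left out. Promoter sequences came from RefSeq (GRCm38.p6).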

Additional observations from a re-analysis of the deposited data

Results flagged for a closer look

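Bhlhe40 was flagged because its arrays moved in opposite directions with FA in the 2 genotypes. Both FA arrays were below both vehicle arrays in wild type and above them in REDD1 KO. The difference of the FA effects was 1.34 on the log2 scale (adjusted p = 0.33 by limma over all tested probes), so it was not called. No other detected clock gene moved this way, and none had a difference of the FA effects with an adjusted p under 0.05. The share of all tested probes with such an opposite order was not counted. The order of the Bhlhe40 arrays is therefore only a description.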

How the results depend on the processing

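No called change of a clock gene changed direction under any alternative. Of 24 called changes, 9 kept the call under every alternative and with any 1 array left out: those of Dbp and Tef in wild type, and in the mean of both genotypes those of Dbp, Tef, Nfil3, Timeless, Csnk1e, Usp2 and Klf9. These alternatives kept to 1 probe per non-member, and a second Csnk1e probe was not called in the mean (0.36, adjusted p = 0.0867). The other 15 lost it without at least 1 array, and 12 of the 24 under another alternative. The 24 include the wild-type FA change of Per3, which the filter kept only for its wild-type vehicle level, so its call is not a result. Counts of members in this section also include it. Counted so, 2 members were called with FA in wild type, against 1 without Per3. Per3 was the one lost, leaving a count of 1 with detection required in all 8 arrays, where it is not tested. The count was also 1 with median centring, with no probe filter, with only the 4 arrays compared and with the replicate number as a block. With arrays left out this count was 1 to 2, that in the mean of both genotypes 1 to 4 (reported: 3), and that between genotypes with FA 0 to 1 (reported: 1). In REDD1 KO, 1 member was called in place of 0 without background correction. Values that were not called turned their sign as follows, the cause being untested. Per2 with FA in REDD1 KO became -0.15 with median centring and -0.15 with the other probe, and the other Nr1d2 probe gave 0.21 in wild type, 0.34 in REDD1 KO and 0.27 in the mean. With arrays left out, the FA effect in wild type ran from -0.43 to 0.89 for Per1, from -1.01 to 0.38 for Per2, from -0.15 to 0.40 for Cry2 and from -0.022 to 0.67 for Arntl. Per2 ran from -0.20 to 0.28 in REDD1 KO and from -0.48 to 0.21 in the mean, and Dbp between genotypes with vehicle from -0.021 to 0.13. Of 24 further uncalled values of members, between genotypes, 17 changed sign under at least 1 alternative. Of 36 group means of members, 11 moved by more than the SD of their 2 arrays under median centring, by -0.13 to 0.10.

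The labels do not say that the replicate numbers pair the samples. Deviations from the group means of same-numbered arrays correlated over tested probes at 0.22 to 0.25 among wild-type FA and the REDD1 KO groups, and at -0.11 to -0.030 between these and wild-type vehicle, so the numbers were not treated as pairs. With the number as a block, the count of members called in wild type was 1 and no other count of members changed. Counts over all tested probes also moved. With arrays left out they ran from 143 to 903 in wild type (reported: 833), 178 to 649 in REDD1 KO (592), 855 to 1435 in the mean (1718), 17 to 65 between genotypes with vehicle (67), 91 to 965 with FA (940) and 0 to 31 for the difference of effects (4). Under the other alternatives they ran from 576 to 1085, 310 to 791, 1382 to 1991, 31 to 90, 598 to 1255 and 0 to 8 in the same order. The fit to only the 4 arrays compared could not be made for the mean or for the difference of effects. With 2 arrays per group and signals close to the background, Per3 and Timeless rest on the lowest signals, and Cry1 has no measured level.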
